A study of Mus musculus with 18 samples.

Results

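Hmgcs1, Idi1, Fdps, Fdft1, Sqle, Lss and Cyp51, enzymes of cholesterol synthesis, and Insig1, which restrains that pathway, were examined in cultured mouse aorta. The 8 genes were chosen by name, as the cholesterol synthesis genes of the series, and every probe set whose annotation holds 1 gene symbol, that of a member, was taken. Of the 8, 7 had such a probe set, among 12393 genes that had one in the whole table; Insig1 is not analysed here. The 7 genes carried 19 probe sets, 14 of which passed the filter described below, and all 7 entered the tests.

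The samples were 18 pools of aorta from male C57Bl/6 mice, 3 aortas to a pool, measured on Affymetrix arrays. Every animal, controls included, had carried a pellet of spironolactone, a blocker of the mineralocorticoid receptor, that released 20 mg/kg/day for 5 days. The excised vessels were then cultured as organs for 2, 4 or 8 h, in medium that held either vehicle or aldosterone, the main natural ligand of that receptor, at 100 nM. Each of the 6 groups held 3 pools. Every sample had been cultured, so the values describe vessels outside the body after receptor blockade, and changes over time are counted from 2 h. Values are log2 expression estimates. A probe set was tested where it exceeded 4 in at least 3 of the 18 samples, the probe set with the highest mean stood for its gene, and 7092 genes were tested. Differences are log2 differences ± SE from limma, 3 pools against 3 unless stated, and a gene was called where its Benjamini-Hochberg adjusted p over the 7092 genes was under 0.05. Values for further probe sets of a gene come from a separate limma fit of the 11236 probe sets past the filter. Their p-values were adjusted over those probe sets. Replicates are separate pools of animals.

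Cells build cholesterol from acetyl-CoA. Hmgcs1 makes the precursor that is reduced to mevalonate, Idi1 and Fdps assemble isoprene units into farnesyl diphosphate, and Fdft1 joins farnesyl units into squalene. Sqle oxidises squalene, Lss closes the ring to give lanosterol, and Cyp51 removes a methyl group from it. Transcription of these genes is driven by SREBP2, a membrane-bound factor that Scap escorts to the Golgi when sterols are low and that the Insig proteins hold in the endoplasmic reticulum when sterols are high. SREBP factors bind sterol regulatory elements, commonly beside a CCAAT box bound by NF-Y. In the vessel wall, smooth muscle, endothelial cells, fibroblasts, macrophages and fat cells around the aorta can all run this pathway.

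RefSeq promoter entries on GRCm38.p6 were at hand for 5 of the 8 genes. The 250 bases before the start site are shown for 3 of them, Hmgcs1, Idi1 and Cyp51, because these passed the test in at least 1 comparison of culture times below. Capitals mark matches, on either strand, to the letters TCACNCCAC (a sterol regulatory element) and CCAAT; the motifs do not overlap in these windows.
Hmgcs1 (chr13:119690101-119690350, + strand): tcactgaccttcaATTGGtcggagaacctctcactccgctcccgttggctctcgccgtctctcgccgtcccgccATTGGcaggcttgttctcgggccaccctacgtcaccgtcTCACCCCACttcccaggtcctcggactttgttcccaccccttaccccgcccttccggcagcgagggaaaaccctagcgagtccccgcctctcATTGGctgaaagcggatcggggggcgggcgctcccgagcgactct
Idi1 (chr13:8885356-8885605, + strand): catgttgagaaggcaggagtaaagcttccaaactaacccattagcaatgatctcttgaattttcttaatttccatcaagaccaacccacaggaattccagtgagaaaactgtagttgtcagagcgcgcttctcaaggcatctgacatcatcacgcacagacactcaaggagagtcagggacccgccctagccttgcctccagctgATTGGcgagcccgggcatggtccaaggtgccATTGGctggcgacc
Cyp51 (chr5:4104698-4104947, - strand): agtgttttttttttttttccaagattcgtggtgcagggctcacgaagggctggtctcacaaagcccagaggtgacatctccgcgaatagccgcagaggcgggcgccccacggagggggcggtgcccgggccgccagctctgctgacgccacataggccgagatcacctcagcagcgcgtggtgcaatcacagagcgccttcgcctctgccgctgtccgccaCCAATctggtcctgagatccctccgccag
The Hmgcs1 window held 1 match to the sterol regulatory element, from -137 to -129 relative to the start site, and 3 CCAAT matches. Idi1 held 2 CCAAT matches and Cyp51 1, and neither window held the sterol element as spelled here. Among 32851 promoter windows of the same length, 1.05% held the sterol element and 33.8% held CCAAT. A match is a run of letters, not a measured binding site.

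Vehicle 2 h replicate 1 stood apart from the other samples. Its median over all probe sets was 4.42, against 4.01 to 4.09 in the other 17, and 908 of the 7092 genes lay more than 1 from the mean of their group mates, against 17 to 239 elsewhere. Counts of called members and several member values are given with and without it, and list genes mostly with all samples only. Smooth muscle markers were abundant in all samples (Acta2 averaged 14.51 and Myh11 13.25), and adipocyte markers were present too (Adipoq 9.89, Ucp1 8.68), while the liver transcript Alb averaged 3.28. In vehicle from 2 to 8 h, 4 of 6 smooth muscle, 4 of 5 endothelial, 6 of 6 fibroblast, 4 of 5 adipocyte and 4 of 6 macrophage markers were called lower, beside 31.9% of all genes. The smooth muscle list held 1 riser and so did the macrophage list. The log2 of the summed adipocyte markers ran from 14.11 to 14.72 in vehicle at 2 h and from 13.47 to 13.59 at 8 h, and that of smooth muscle from 15.56 to 16.05 and from 15.13 to 15.37. In pooled tissue, fewer cells of a type and less RNA per cell cannot be told apart, and the part of these shifts in the changes over time below was not tested.

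**Figure D1:**
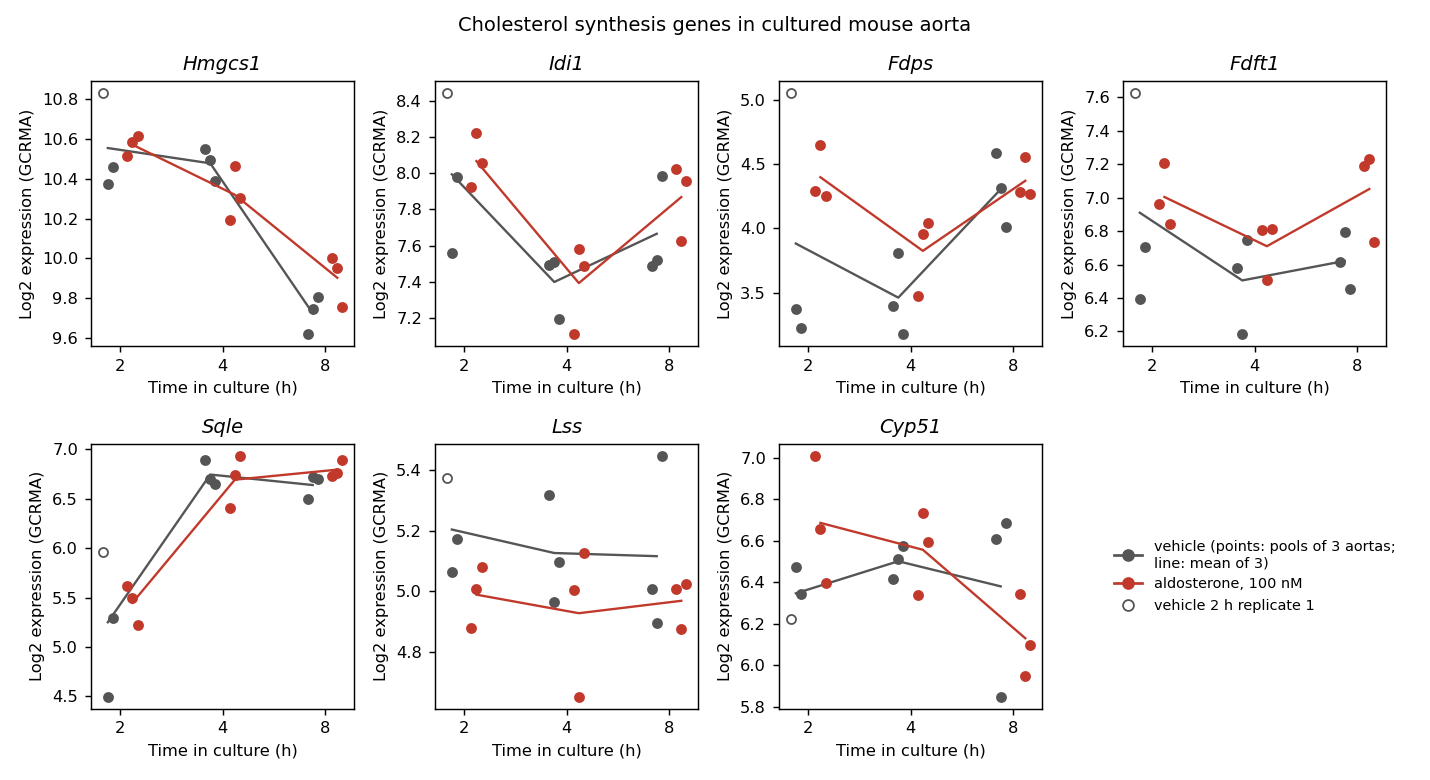
Log2 expression of the 7 measured genes in each of the 18 pools (points) against hours in culture, spaced equally, with lines through the means of 3 vehicle (grey) or 3 aldosterone (red) pools and vehicle 2 h replicate 1 as an open circle. Hmgcs1 is lowest at 8 h and Sqle is lowest at 2 h under both treatments, and vehicle and aldosterone pools mostly overlap at a given hour.

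The first question is how these genes moved while the vessel was in culture without hormone. Hmgcs1 fell between 4 and 8 h, Sqle rose between 2 and 4 h, and the enzymes between and after them in the pathway did not share either course. From 2 to 8 h in vehicle, 2 of the 7 genes were called, 1 higher and 1 lower, against 58.5% of all genes tested (26.6% higher, 31.9% lower). The members' median difference was -0.09, beside -0.07 over all genes. From 2 to 4 h it was 2 of 7 against 40.2%, and from 4 to 8 h 1 of 7 against 37.7%. These comparisons share groups and are not independent of each other, and the members' share lay below that of all genes in each.

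Hmgcs1, the cytosolic HMG-CoA synthase, read 10.83, 10.37 and 10.46 in the vehicle pools at 2 h, 10.55, 10.49 and 10.39 at 4 h, and 9.62, 9.75 and 9.81 at 8 h. Each 8 h pool lay below each earlier vehicle pool, while the 2 h and 4 h pools overlapped. The fall from 2 to 8 h was -0.83 ± 0.12, to 0.562 of the 2 h level (adjusted p = 1.395e-05), and from 4 to 8 h it was -0.75 ± 0.12 (adjusted p = 0.0001144). Without vehicle 2 h replicate 1 the fall from 2 to 8 h was -0.69 ± 0.10 (adjusted p = 1.417e-05). With aldosterone the pools read 10.51, 10.58 and 10.62 at 2 h, 10.19, 10.46 and 10.31 at 4 h, and 10.002, 9.95 and 9.75 at 8 h. These 3 groups did not overlap at all, each later group lying below the earlier one. The fall from 2 to 8 h was -0.67 ± 0.12, to 0.628 of the 2 h level (adjusted p = 0.0001359). That from 4 to 8 h, -0.42 ± 0.12, was called (adjusted p = 0.01127), but not on leaving out, of the aldosterone pools, replicate 2 at 4 h or replicate 3 at 8 h, when it was -0.35 and -0.34. Hmgcs1 has 3 further probe sets past the filter. In vehicle from 2 to 8 h, 3 of the 4 were called lower, and the dimmest, at -0.60 ± 0.26, was not. With aldosterone 2 of the 4 were called from 2 to 8 h, the others giving -0.33 and -0.15, and 1 of the 4 from 4 to 8 h.

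Idi1, the isomerase that interconverts the building blocks of isoprenoids, read 8.44, 7.56 and 7.98 in vehicle at 2 h, 7.50, 7.51 and 7.19 at 4 h, and 7.49, 7.52 and 7.99 at 8 h. The vehicle 4 h pools all lay below the 2 h pools, by 0.05 at the closest, and the 8 h pools overlapped both. The fall to 4 h was -0.59 ± 0.21 (adjusted p = 0.0301), to 0.662 of the 2 h level. Without vehicle 2 h replicate 1 it was smaller and not called (-0.37, adjusted p = 0.1366), and so without vehicle 4 h replicate 3 (-0.49). It was also not called without vehicle 2 h replicate 3 or vehicle 4 h replicate 1, though the difference stayed about as large (-0.60 and -0.64). With aldosterone, Idi1 read 7.92, 8.22 and 8.06 at 2 h, 7.11, 7.58 and 7.49 at 4 h, and 8.02, 7.63 and 7.95 at 8 h. Here the 4 h pools lay below those of both other times. The fall from 2 to 4 h was -0.67 ± 0.21 (adjusted p = 0.0165), and it was not called on leaving out the aldosterone pools replicate 2 at 2 h (-0.60) or replicate 1 at 4 h (-0.53). A second Idi1 probe set read 4.94 in vehicle 2 h replicate 1, the pool where the first read highest, against 6.88 and 6.84 in its group mates. It gave 0.16 ± 0.42 from 2 to 4 h in vehicle and -0.66 ± 0.42 with aldosterone, so the probe sets differ in sign in vehicle, and neither of these passed.

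Fdps, which makes farnesyl diphosphate, was dim, above 4 in 11 of the 18 samples. In vehicle it read 5.05, 3.37 and 3.22 at 2 h, 3.40, 3.81 and 3.18 at 4 h, and 4.59, 4.31 and 4.01 at 8 h. All 4 h pools lay under 4 and all 8 h pools above it, while the 2 h pools spread across the range, with replicate 1 high. The fitted difference from 4 to 8 h was 0.84 ± 0.35 and was not called (adjusted p = 0.065). Without vehicle 2 h replicate 1, which enters that difference only through the shared spread, it was called (adjusted p = 0.002432). As the 4 h pools are under the filter level, the size is given as at least 1.24-fold higher at 8 h. Without that pool the difference from 2 to 8 h was also called (adjusted p = 0.0009109), at least 1.24-fold, against 0.42 ± 0.35 (adjusted p = 0.3049) with it. With aldosterone, Fdps read 4.29, 4.65 and 4.25 at 2 h, 3.48, 3.96 and 4.04 at 4 h, and 4.28, 4.56 and 4.27 at 8 h. The 4 h pools lay below the others, and neither step was called with all samples (adjusted p = 0.2098 and 0.2338). Both were called without vehicle 2 h replicate 1 (adjusted p = 0.0266 and 0.03404).

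Fdft1, squalene synthase, passed in no comparison of times. In vehicle it read 7.63, 6.40 and 6.71 at 2 h, 6.58, 6.18 and 6.75 at 4 h, and 6.61, 6.80 and 6.46 at 8 h, with overlap between all times and the highest value again in vehicle 2 h replicate 1. With aldosterone the 9 pools lay between 6.51 and 7.23. There the 4 h pools all lay below the 2 h pools, but the difference, -0.29 ± 0.25, was not called (adjusted p = 0.3878). The difference from 2 to 8 h in vehicle was -0.29, with a 95% confidence interval from -0.82 to 0.24, and 0.07 ± 0.20 without vehicle 2 h replicate 1, so its sign turns with that pool. A second Fdft1 probe set gave -0.44 ± 0.21 from 2 to 4 h in vehicle (adjusted p = 0.1175). With aldosterone it gave -0.51 ± 0.21 over the same step (adjusted p = 0.0717), so neither was called.

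Sqle, squalene epoxidase and a rate-limiting step of the pathway, has 1 probe set here. In vehicle it read 5.96, 4.50 and 5.29 at 2 h, 6.89, 6.70 and 6.65 at 4 h, and 6.49, 6.72 and 6.70 at 8 h. The 2 h pools all lay below the later ones, which overlapped each other, and the 2 h pools were the most spread, with replicate 1 nearest to the later times. The rise from 2 to 4 h was 1.50 ± 0.26, or 2.82-fold (adjusted p = 0.0002577), and from 2 to 8 h 1.39 ± 0.26, or 2.62-fold (adjusted p = 0.000179). With aldosterone, Sqle read 5.62, 5.50 and 5.22 at 2 h, 6.41, 6.74 and 6.94 at 4 h, and 6.73, 6.76 and 6.89 at 8 h. The pattern was the same, low at 2 h without overlap and level from 4 h. The rise was 2.37-fold to 4 h and 2.55-fold to 8 h (adjusted p = 0.00118 and 0.000242). Without vehicle 2 h replicate 1 the vehicle rises were 1.85 and 1.74.

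Lss, lanosterol synthase, was the steadiest member by the probe set that stood for the gene. Its 18 values ran from 4.65 to 5.45, every pair of groups overlapped in time within a treatment, and its largest difference between times was -0.09 (95% confidence interval -0.46 to 0.28, vehicle 8 h against 2 h). A second, dimmer probe set ran from 3.93 to 5.38. In vehicle it gave -0.41 ± 0.27 at 4 h and -0.35 ± 0.27 at 8 h against 2 h, neither called. Its 2 h vehicle mean includes 5.38 in replicate 1, beside 4.25 and 4.20 in the group mates.

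Cyp51, lanosterol 14-alpha-demethylase, read 6.22, 6.47 and 6.35 in vehicle at 2 h, 6.42, 6.51 and 6.57 at 4 h, and 6.61, 5.85 and 6.68 at 8 h, with a single low pool at 8 h. With aldosterone it read 7.01, 6.65 and 6.39 at 2 h, 6.34, 6.74 and 6.60 at 4 h, and 6.34, 5.95 and 6.10 at 8 h. There the 8 h pools all lay below the 2 h pools, at -0.56 ± 0.21 (adjusted p = 0.0322), and a second probe set gave -0.67 ± 0.22 (adjusted p = 0.01668). The call of the first was lost on leaving out, of the aldosterone pools, replicate 1 at 2 h (-0.39), replicate 2 at 2 h (-0.57), replicate 2 at 8 h (-0.47) or replicate 3 at 8 h (-0.54). In vehicle the same difference was 0.03 ± 0.21. The test of whether the aldosterone difference changed with time did not pass for Cyp51 (F test, adjusted p = 0.9519), so the courses in the treatments are not shown to differ.

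**Figure D2:**
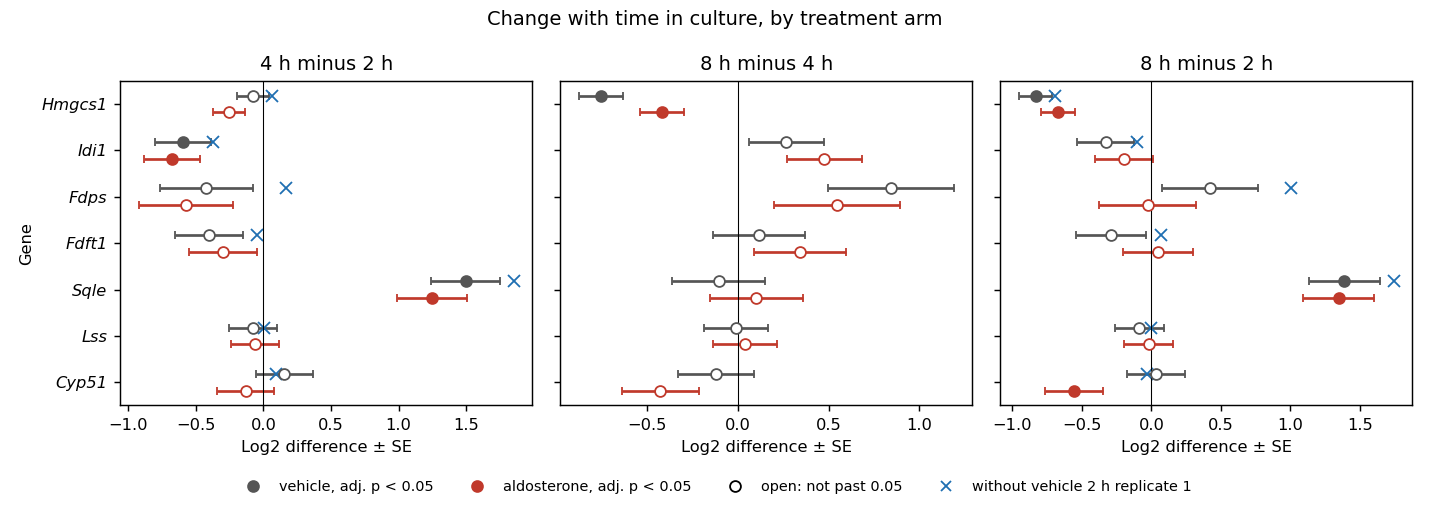
Log2 difference ± SE of the 7 genes for 4 h minus 2 h, 8 h minus 4 h and 8 h minus 2 h, in vehicle (grey) and with aldosterone (red); filled points have an adjusted p under 0.05, and crosses give the vehicle difference without vehicle 2 h replicate 1. Sqle stands above 0 at 4 and 8 h against 2 h under both treatments, at 1.25 to 1.50, and Hmgcs1 is below 0 at 8 h under both.

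With aldosterone, 3 of the 7 genes were called from 2 to 8 h, Sqle higher and Hmgcs1 and Cyp51 lower, against 56.5% of all genes (29.2% higher, 27.3% lower). The step from 2 to 4 h had 2 of 7 against 38.6%, and the step from 4 to 8 h 1 of 7 against 37.5%. Without vehicle 2 h replicate 1 the vehicle counts were 1, 2 and 3 of 7 for 2 to 4 h, 4 to 8 h and 2 to 8 h, against 39.8%, 47.4% and 61% of genes, and the aldosterone counts were 4, 3 and 3, against 48.1%, 47.8% and 63.6%. The members' shares lay below those of all genes under either choice, apart from the 4 of 7 against 48.1%, which lay somewhat above.

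The second question is whether aldosterone changed these genes. None of the 7 was called at 2, 4 or 8 h, on average over the times, or in the test of differences between times. By the same limma fit 0 of 7 had an unadjusted p under 0.05 in any of these. Over all genes the shares called were 0.0705%, 0.24%, 1%, 1.1% and 0.155%, so at those shares 7 genes would give few calls or none.

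Averaged over the times, 9 pools against 9, Hmgcs1 differed by 0.01 (95% confidence interval -0.13 to 0.16), the narrowest interval of the 7. Sqle was at 0.10 (-0.21 to 0.41), Idi1 at 0.09 (-0.16 to 0.34) and Cyp51 at 0.05 (-0.21 to 0.30). Lss had the only negative average, -0.19 (-0.40 to 0.03), and its difference was below 0 at each time, from -0.22 to -0.15. Fdft1 stood at 0.24 (-0.06 to 0.55) and was above 0 at each time, widest at 8 h with 0.43 (-0.10 to 0.96). There the aldosterone pools read 7.19, 7.23 and 6.73 and the vehicle pools 6.61, 6.80 and 6.46, so the groups overlapped. Among the probe sets that stood for the genes, the aldosterone pools all lay above the vehicle pools only for Sqle at 8 h. The gap was 0.01 at the closest, and the difference, 0.16 ± 0.26, was not called. Aldosterone pools also lay wholly above for a further Hmgcs1 probe set at 8 h and the second of Idi1 at 2 h. For the second Cyp51 probe set at 8 h they lay wholly below. How many of all genes separate in this way was not counted.

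These averages shift with vehicle 2 h replicate 1. Without it, Hmgcs1 averaged 0.06 ± 0.05, Sqle 0.22 ± 0.11, Idi1 0.16 ± 0.10 and Cyp51 0.03 ± 0.12. Fdft1 then averaged 0.36 ± 0.11 (adjusted p = 0.103) and Lss -0.16 ± 0.10. At 2 h alone, Sqle moved from 0.20 to 0.55 and Fdft1 from 0.09 to 0.45, with adjusted p of 0.235 and 0.297 without that pool, so these 6 genes stayed uncalled while their estimates changed.

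Fdps is the member whose answer turns on vehicle 2 h replicate 1. At 2 h its aldosterone pools, 4.29, 4.65 and 4.25, lay between that pool at 5.05 and its mates at 3.37 and 3.22. With all samples the difference was 0.52 ± 0.35 (adjusted p = 0.5951), and averaged over the times 0.31 ± 0.20 (adjusted p = 0.7244). Without that pool both were called, at 2 h with a fitted 1.10 ± 0.22 (adjusted p = 0.04474, 3 pools against 2) and on average with 0.51 ± 0.12 (adjusted p = 0.0354), where 0.409% and 2.06% of all genes were called. The remaining vehicle pools lie under 4, so the size at 2 h is at least 1.32-fold. At 4 h both groups centred under 4, and at 8 h the difference was 0.07 ± 0.35. No other member was called for aldosterone without that pool.

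**Figure D3:**
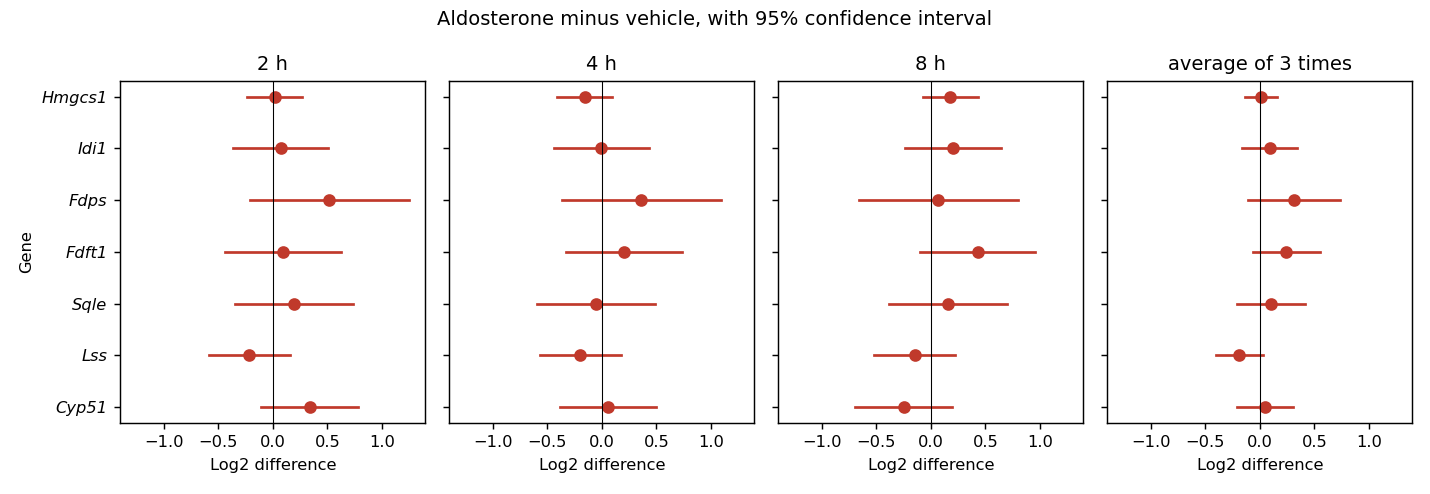
Aldosterone minus vehicle on the log2 scale for the 7 genes at 2, 4 and 8 h and averaged over the times, each with its 95% confidence interval. Every interval includes 0, and the widest are those of Fdps, up to 1.25 at 2 h.

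Second probe sets were not called either. At 2 h that of Idi1 gave 0.92 ± 0.42 (unadjusted p = 0.0417, adjusted p = 0.4307), where its vehicle mean includes the low reading of replicate 1, and that of Cyp51 gave 0.47 ± 0.22 (unadjusted p = 0.0481, adjusted p = 0.4532). The second Idi1 probe set stood at 0.10 and 0.47 at 4 and 8 h, and that of Cyp51 averaged 0.03 over the times. For Fdft1 the second averaged 0.11, against 0.24 for the first. The second Lss probe set averaged -0.04 and was above 0 at 4 and 8 h, at 0.17 and 0.08, so the sign seen with the first at each time was not shared. The further Hmgcs1 probe sets averaged 0.19 ± 0.10 (unadjusted p = 0.0637, adjusted p = 0.6221), 0.11 and 0.04, against 0.01 for the first. At 8 h they gave 0.26, 0.23 and 0.24, against 0.18 for the first.

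Across the 18 samples the members did not form 1 course. The Pearson correlation of each gene with the mean of the members' standardized values ran from -0.02 for Sqle to 0.76 for Idi1. That mean includes the gene itself, and all points share the array and the 6 groups. Among pairs, Fdft1 and Fdps were at 0.64 and Fdps and Idi1 at 0.60, or 0.51 and 0.48 over 17 samples without vehicle 2 h replicate 1. Hmgcs1 and Sqle were at -0.47 with and without it. The 5 other genes most like the members' mean were Gcsh (r = 0.81), Cbfa2t2 (0.79), Ankrd40, D6Wsu163e and Gatad1 (0.78 each). Without vehicle 2 h replicate 1 they were Taf13 (0.73), Zfr (0.68), Dnajc7 (0.67), Stab1 and Fam122a (0.64 each), so which genes rank first depends on that sample.

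Other genes of sterol metabolism were read from fixed lists for comparison. Of 14 other sterol synthesis enzymes 6 were measured, and in vehicle from 2 to 8 h 2 rose and 3 fell, with a median of -0.43 (-0.25 and 2 falls without vehicle 2 h replicate 1). Msmo1, the C4-methyl sterol oxidase that acts after Cyp51, rose from 6.96 ± 0.35 at 2 h to 7.93 ± 0.07 at 4 h and 9.15 ± 0.11 at 8 h (SD, n = 3), 4.54-fold in all (adjusted p = 2.035e-08), and 5.5-fold with aldosterone. Ebp, a sterol isomerase, fell to 0.316 of its level in vehicle and to 0.546 with aldosterone. Pmvk, phosphomevalonate kinase upstream of Idi1, fell by 0.95 and 2.11 on the log2 scale. At 8 h Pmvk lay near the filter level of 4, from 3.70 to 4.49 in vehicle and 3.82 to 4.62 with aldosterone. The size of its falls is therefore uncertain. The vehicle call of Pmvk was lost without vehicle 8 h replicate 2 (-0.71). Nsdhl, the sterol dehydrogenase after Msmo1, fell by 0.57 and 1.34, its vehicle call being lost without vehicle 2 h replicate 1 or vehicle 8 h replicate 2 (-0.47 and -0.53).

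Of the genes for sterol sensing and SREBP processing, 7 of 11 were measured, and 4 rose and 1 fell in vehicle from 2 to 8 h (median 0.55), against 2 and 0 with aldosterone (median 0.20). The 5 of 7 called in vehicle and 2 of 7 with aldosterone stand beside 58.5% and 56.5% of all genes, as do the counts of the other lists over these hours. The transcript of Insig2, the Insig gene measured here, rose 1.67-fold in vehicle (adjusted p = 2.253e-05) and 1.73-fold with aldosterone (adjusted p = 1.166e-05). Syvn1, a ubiquitin ligase of the endoplasmic reticulum, rose 1.95-fold and 2.17-fold. Srebf2, which encodes SREBP2, fell to 0.62 of its level in vehicle (-0.69 ± 0.19, adjusted p = 0.005261) and gave -0.15 ± 0.19 with aldosterone (adjusted p = 0.5228). Scap rose by 0.55 ± 0.15 in vehicle and gave 0.20 ± 0.15 with aldosterone. Differences between treatments in these courses were not past the threshold for any gene of the list.

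For uptake and transport inside the cell, 8 of 9 genes were measured, and 1 rose and 3 fell under each treatment from 2 to 8 h. Vldlr, a lipoprotein receptor, rose 3.27-fold in vehicle and 2.96-fold with aldosterone, and Npc2, which moves cholesterol out of lysosomes, fell to 0.601 and 0.499 of its 2 h level. Among 4 of 8 measured genes of oxysterol response and efflux, 1 rose and 2 fell under each treatment. Mylip, a ubiquitin ligase that degrades lipoprotein receptors, fell to 0.219 in vehicle and 0.286 with aldosterone. Ch25h, which makes 25-hydroxycholesterol, a signal that holds SREBP back, rose 3.88-fold and 7.96-fold. At 2 h it lay near the filter level of 4, from 3.55 to 5.24 in vehicle and 3.65 to 4.69 with aldosterone. The size of these folds is therefore uncertain, and the aldosterone difference between times was not called for any gene of this list.

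Most measured fatty acid synthesis genes fell. Of 14 listed, 13 were measured, and from 2 to 8 h 1 rose and 10 fell in vehicle (median -0.83) and 1 rose and 12 fell with aldosterone (median -1.49), beside medians of -0.07 and 0.02 over all genes. Acss2, acetyl-CoA synthetase, fell to 0.217 and 0.0884 of its 2 h level. Elovl5, a fatty acid elongase, fell to 0.392 and 0.454. Mid1ip1, an activator of acetyl-CoA carboxylase, was the riser, at 2.2-fold and 2.29-fold. Adipocyte markers fell over the same hours, with medians of -1.75 in vehicle and -1.22 with aldosterone. Without vehicle 2 h replicate 1 the vehicle median of the fatty acid list was -0.94. No gene of either list was called for an aldosterone difference between times, so the courses under the treatments are not shown to differ. The part of fat cells in the fall of the fatty acid genes was not tested. Of 10 genes of the non-sterol branches that use farnesyl diphosphate, 5 were measured. In vehicle 2 rose and 1 fell from 2 to 8 h (3 and 1 without vehicle 2 h replicate 1), among them Ggps1, geranylgeranyl diphosphate synthase, at 0.38 ± 0.15 and 0.56 ± 0.15 with aldosterone. The vehicle call of Ggps1 was lost without vehicle 2 h replicate 2 (0.33), vehicle 2 h replicate 3 (0.31), vehicle 8 h replicate 1 (0.39) or vehicle 8 h replicate 2 (0.34).

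For aldosterone against vehicle, limma called 0 of the 43 measured genes of the 6 lists at 2, 4 and 8 h, on average and between times, while 9, 1, 3, 4 and 7 had an unadjusted p under 0.05. Over all genes that share was 11%, 3.76%, 6.26%, 8.43% and 5.92% in the same tests. Without vehicle 2 h replicate 1, 1 gene was called at 2 h and 0 in the other tests. It was Srebf1, which encodes the SREBP1 factors, at 0.80 ± 0.17 (adjusted p = 0.0459), against 0.46 with all samples (adjusted p = 0.464); it is named here after its values were seen. Pmvk had the lowest adjusted p on average, with 0.46 ± 0.17 (adjusted p = 0.3508). It stood at 1.19 ± 0.29 at 2 h (adjusted p = 0.1743) and 0.16 and 0.03 at 4 and 8 h. At 8 h Pmvk was near the filter level under both treatments. With array weights, 2 of the named list genes were called on average, Pmvk at 0.56 (adjusted p = 0.0473) and Rnf145, a sterol-responsive ubiquitin ligase, at 0.27 (adjusted p = 0.021). Both had been picked for a small p in this same average, so these calls are no separate support. The share of all genes called with array weights is not given here. Without vehicle 2 h replicate 1 the share for this average went from 1.1% to 2.06%.

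**Figure D4:**
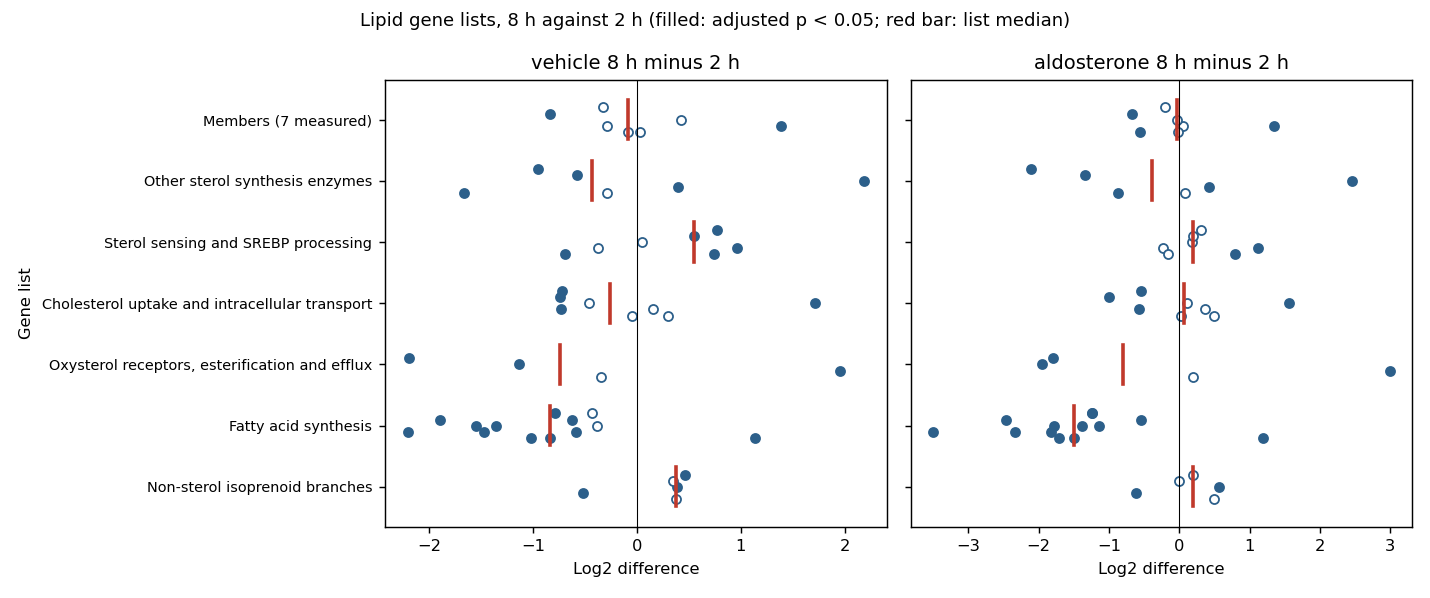
Log2 difference between 8 h and 2 h for each measured gene of the members and of the 6 lists, in vehicle and with aldosterone; filled points have an adjusted p under 0.05 and red bars are list medians. The members spread on both sides of 0, and the fatty acid synthesis genes lie mostly below it, with medians of -0.83 and -1.49.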

How the data were processed

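Expression was read from the deposited table of log2 values, which the authors made by GCRMA. That name comes from the submitters' processing notes, with version and options not given in the sources used here. GCRMA subtracts background by probe sequence and equalises arrays. The table held 22690 probe sets, 64 of them controls and 691 with several genes; 20380 had 1 gene, and 11236 of these passed the filter. Probe set names come from the platform annotation, which can be old.

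A cell-means model of 6 groups was fitted to 18 samples by limma 3.58.1 (R 4.3.3) using an intensity trend, giving 12 residual and 17.2 total degrees of freedom and a median within-group SD of 0.235. All 11 comparisons were adjusted over 7092 genes, and in the separate fit of single probe sets over 11236 probe sets. Precision is limited by the 3 arrays in a group. Where every pool of a group lay at or under 4, the fold is a lower bound, taken from the other group's mean against 4.

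Members and gene lists were chosen with earlier results of these data known. Named were all members, up to 4 genes per list with the smallest p in vehicle 8 h against 2 h, up to 2 for the aldosterone average (values given for some), and the 5 genes most like the members' mean. Alternatives were another prior, filters, probe set rules, normalizations, array weights, a replicate term, fewer groups and leaving out each sample. Replicate numbers were not treated as pairs in the main model: 23 of 27 correlations of deviations between same-numbered samples were under 0.1.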

Additional observations from a re-analysis of the deposited data

How the results depend on the processing

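No call among the members changed sign under any alternative. Aldosterone calls at 2 h and on average rose from 0 to 1 (Fdps) with array weights, and ranged from 0 to 1 leaving out 1 sample. In vehicle from 2 to 4 h, 2 members became 1 with no filter, the mean of probe sets, array weights or only the groups compared, and 1 to 3 leaving out 1 sample. From 4 to 8 h in vehicle, 1 became 2 with quantile normalization again, median centring, array weights or only the groups compared (Fdps in each case), and 1 to 2 leaving out 1 sample. With aldosterone from 2 to 4 h, 2 became 4 with array weights and 1 to 4 leaving out 1 sample. From 4 to 8 h, 1 became 0 with the mean of probe sets, 5 with array weights, 3 with only the groups compared, and 0 to 3 leaving out 1 sample. The share of all genes called is not given here for each setting, so these counts show nothing particular to the members. That share can move as well. Without vehicle 2 h replicate 1 it went, with aldosterone, from 38.6% to 48.1% for 2 to 4 h and from 37.5% to 47.8% for 4 to 8 h. The calls of Sqle and Hmgcs1 from 2 to 8 h were kept under both treatments in all 28 alternatives.

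Median centring moved the median of all genes in vehicle from 2 to 4 h from -0.13 to -0.02. Over all genes at 2 h, aldosterone calls were 3 higher and 2 lower, 9 and 2 with centring, and 7 and 1 with quantile normalization again. With the replicate block, member counts stayed at 0 for aldosterone at 2, 4 and 8 h and at 2, 1 and 2 of 7 in vehicle. The labels link same-numbered samples by the number only, and their deviations had correlations from -0.19 to 0.28. These do not show that such samples share nothing else. A filter at 6 removes Fdps and Lss. Fits to only the groups compared were not run for the average or the F test. Alternatives for list genes were added after the data were seen. Dim genes such as Fdps limit what can be measured.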
